A study of Mus musculus with 8 samples.

Results

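The carbonic anhydrases described here are 7 genes, Car2, Car3, Car4, Car5b, Car8, Car13 and Car14, of the 31053 genes counted in brown adipose tissue (BAT) of WT and Ucp1Δ/Δ mice. They were chosen by name with results of these counts in view: Car14 because it is among the largest falls in Ucp1Δ/Δ mice, and Car3 because it is among the most counted genes. The genotype contrast is therefore no test of the members, and their values are given as a description. BAT of 4 mice per genotype was profiled by bulk RNA-seq to follow the tissue after loss of lipolysis. In the Ucp1Δ/Δ mice, called ATGLKO in the labels, Pnpla2 fl/fl was combined with Ucp1 Cre, so that Pnpla2, which encodes the lipase ATGL, is deleted in cells that use the Ucp1 promoter, chiefly brown adipocytes. The labels give all mice as C57BL6/J and 10 weeks old, whereas the study's figure legend gives a younger age. The study used males, and its methods do not say whether the WT mice carried the floxed allele or the Cre. The labels name BAT as the tissue and also the stromal vascular fraction, the cells left when adipocytes are removed. The adipocyte genes Ucp1, Cidea and Adipoq were abundant in both genotypes, with means of 2719 and 2152 CPM (a gene's counts relative to the TMM-scaled library total), 5948 and 2671 CPM, and 1087 and 615 CPM in WT and Ucp1Δ/Δ mice.

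Carbonic anhydrases are zinc enzymes that convert CO2 and water into bicarbonate and a proton, and back. The isoforms differ in where they sit: in the cytosol, in the mitochondrial matrix, or on the outer face of the plasma membrane. In fat cells the bicarbonate they provide is the substrate of carboxylases such as pyruvate carboxylase and acetyl-CoA carboxylase, which feed fatty acid synthesis. Some members of the family, among them Car8 and Car11, lack catalytic activity and are known as carbonic anhydrase-related proteins.

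Total counts were between 2017697 and 3115956 per mouse, and no difference between the groups was shown (p = 0.629, exact permutation test, two-sided, where 4 mice against 4 allow no p below 0.0286). Mitochondrially encoded genes took between 38.4% and 45.6% of the counts. In a single mouse, 3 counts correspond to between 0.933 and 1.53 CPM, a floor that covers counting error only. The targeted gene Pnpla2 was at 16.3% of its WT mean in Ucp1Δ/Δ mice (2913 ± 191 against 474 ± 59.2 CPM, SD, n = 4 each), and counts by gene cannot tell a floxed from a recombined transcript. Of 8930 genes tested, 1872 (21.0%) passed a Benjamini-Hochberg adjusted p of 0.05 in the edgeR quasi-likelihood test, 681 (7.63%) lower and 1191 (13.3%) higher in Ucp1Δ/Δ mice. With scaling by total counts only, which moved the median log2 fold change (log2FC, Ucp1Δ/Δ against WT) of all genes from -0.0087 to 0.13, the split was 404 lower and 1478 higher. In bulk tissue, fewer cells of a type and less RNA per cell cannot be told apart.

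Of the 7 members, 6 had enough counts to be tested and 1, Car8, did not. Of the 6, Car3, Car13 and Car14 fell in Ucp1Δ/Δ mice, 0 rose, and Car2, Car4 and Car5b did not pass the threshold. Among all genes tested 7.63% fell and 13.3% rose, but the members were selected on this contrast and nothing is read from their share. The median log2FC of the 6 was -0.65, beside -0.0087 over all genes tested, and 5 of the 6 were below 0. Under a looser filter on low counts (1 or more in any mouse) 5 members passed, Car5b and Car8 with the other 3, and under a stricter one (10 or more in every mouse), which removed Car14, 1 passed.

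**Figure D1:**
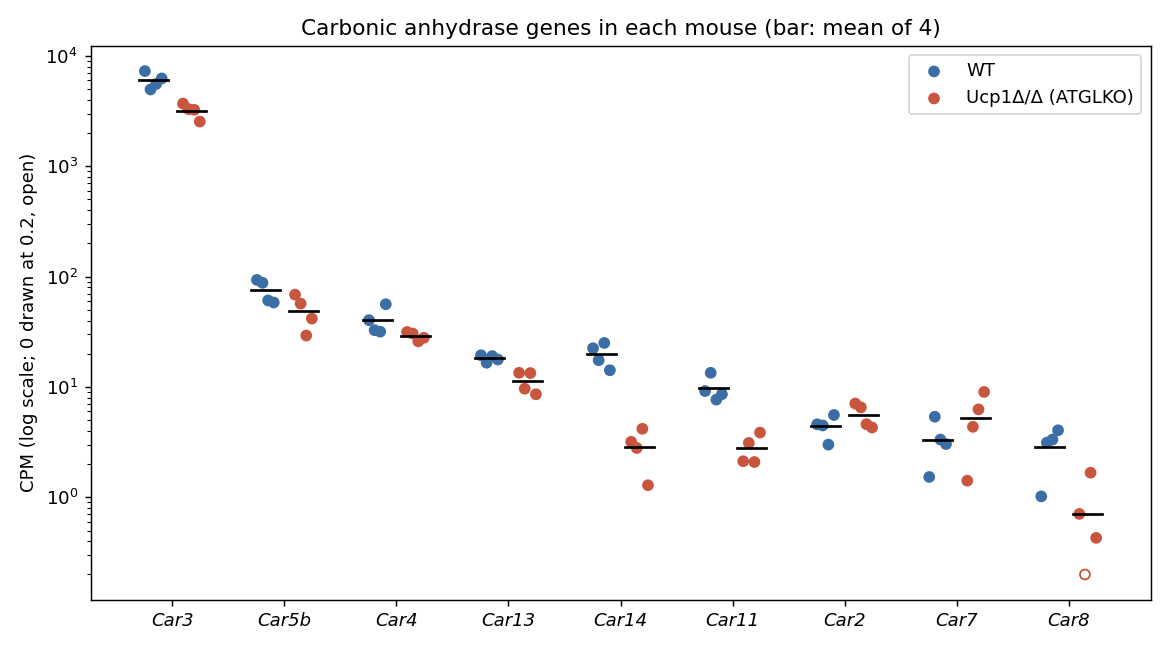
Level of each carbonic anhydrase gene in each mouse, in CPM on a log scale, with WT mice in blue, Ucp1Δ/Δ mice in red and a bar at the mean of 4; the open point at the bottom is a mouse with 0 counts. Car3 has the most counts of the family in both genotypes, and Car14 shows the widest gap between genotypes, from a mean of 19.8 to 2.86 CPM.

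The promoters of the members are shown where RefSeq holds them: Car14, which fell most of those tested, and Car4 and Car5b, which did not pass. RefSeq promoters were found for 3 of the 7 members. Entries for Car2, Car3, Car8 and Car13 were not found. Each window runs 5′ to 3′ on the gene's strand from 250 bases before the start site to 50 after it, on build GRCm38.p6. The Car14 window is chr3:95904636-95904935 on the minus strand, the Car4 window chr11:84957504-84957803 on the plus strand, and the Car5b window chrX:164027961-164028260 on the minus strand. Capitals mark the searched motifs, on either strand.
Car14: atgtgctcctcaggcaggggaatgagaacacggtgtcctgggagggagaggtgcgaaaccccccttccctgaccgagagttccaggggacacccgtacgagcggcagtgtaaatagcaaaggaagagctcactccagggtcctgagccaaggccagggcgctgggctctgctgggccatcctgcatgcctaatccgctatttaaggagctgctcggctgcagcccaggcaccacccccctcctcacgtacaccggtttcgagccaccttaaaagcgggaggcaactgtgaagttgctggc
Car4: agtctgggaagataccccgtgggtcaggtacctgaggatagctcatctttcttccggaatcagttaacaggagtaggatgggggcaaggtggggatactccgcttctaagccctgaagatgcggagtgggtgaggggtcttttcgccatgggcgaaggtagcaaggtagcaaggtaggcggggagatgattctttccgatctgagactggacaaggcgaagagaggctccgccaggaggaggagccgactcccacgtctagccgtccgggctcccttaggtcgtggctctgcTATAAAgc
Car5b: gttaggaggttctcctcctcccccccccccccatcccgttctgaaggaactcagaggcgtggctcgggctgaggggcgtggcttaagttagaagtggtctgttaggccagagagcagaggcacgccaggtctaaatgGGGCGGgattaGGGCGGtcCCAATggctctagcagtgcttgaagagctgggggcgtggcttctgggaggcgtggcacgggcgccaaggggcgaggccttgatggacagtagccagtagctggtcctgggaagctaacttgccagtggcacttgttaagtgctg
Motifs searched on both strands were TATAAA (the TATA box, in 13.6% of 32851 promoters of this length), CCAAT (37.4%), GGGCGG (the GC box, 35.7%), AGGTCA (a nuclear receptor half-site, 16.3%) and the E-box CACGTG (7.15%). The Car14 window held none of these letters. The Car4 window held a single TATAAA whose first base is at position 43 after the start site, not upstream of it. The Car5b window held 2 GC boxes, with first bases at -113 and -102, and a CCAAT at -94. GC content was 61%, 57.3% and 61.7% for Car14, Car4 and Car5b, against a median of 52.7% over all promoters. No binding data accompany these counts, so the matches are a description of the letters only.

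Car14 (ENSMUSG00000038526) encodes a carbonic anhydrase anchored in the plasma membrane with its active site facing outwards. The gene lies on the minus strand of chromosome 3 of mm10, from 95897768 to 95904691. Its level in WT replicates 1 to 4 was 22.4, 17.5, 25.1 and 14.2 CPM. In Ucp1Δ/Δ replicates 1 to 4 it was 3.18, 2.80, 4.18 and 1.29 CPM. The genotypes were far apart: the lowest WT mouse stood above the highest Ucp1Δ/Δ mouse. The means were 19.8 ± 4.88 CPM (SD, n = 4) in WT and 2.86 ± 1.20 CPM (SD, n = 4) in Ucp1Δ/Δ mice, 14.5% of the WT mean. The raw counts behind these levels were 44, 39, 75 and 28 in WT mice and 9, 9, 10 and 3 in Ucp1Δ/Δ mice. The lowest Ucp1Δ/Δ mouse was thus at the floor of 3 counts. The log2FC was -2.77 (standard error 0.32), the 4th lowest of the 8930 genes tested, a rank that is the reason for the choice of Car14. Leaving out any single mouse kept it between -2.97 and -2.56, and it passed each time.

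The last 445 bases at the 3′ end of Car14, on chromosome 3 of mm10 from 95897768 to 95898212, overlap exons of Aph1a, a subunit gene of the gamma-secretase protease, on the opposite strand. They are 17.5% of the exonic bases of Car14. That is a share of bases and not of reads, and it would understate the reads if these came mainly from 3′ ends. Whether the counting used strand is not given in the sources used here, and without strand reads from this stretch cannot be assigned. Aph1a, looked at after its values were seen, was at 55.3 ± 5.5 CPM (SD, n = 4) in WT and 36.9 ± 5.49 CPM (SD, n = 4) in Ucp1Δ/Δ mice, a log2FC of -0.59 (standard error 0.17; edgeR, Benjamini-Hochberg adjusted p = 0.0236). Its part in the Car14 count was not tested.

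Car4 (ENSMUSG00000000805) encodes the other extracellular isoform with a sizeable level here, held on the membrane by a lipid anchor and known from the capillary endothelium of several tissues. It lies on chromosome 11 of mm10 from 84957786 to 84966044. Its level was 40.3, 32.7, 31.7 and 56.2 CPM in WT replicates 1 to 4 and 31.5, 30.5, 25.9 and 27.9 CPM in Ucp1Δ/Δ replicates 1 to 4. The genotypes did not overlap, but only just, and WT replicate 4 stood above the other mice. The log2FC was -0.46 (standard error 0.21, unadjusted 95% interval -0.90 to -0.027), which did not pass. Without WT replicate 4 it was -0.27, and over all mice left out singly it was between -0.58 and -0.27. Of 11 endothelial markers tested, 2 rose and 0 fell, where 13.3% of all genes tested rose and 7.63% fell. Their summed level was between 332 and 448 CPM in WT and between 443 and 549 CPM in Ucp1Δ/Δ mice. Of the same 11 markers 10 had a log2FC above 0 and 1, Emcn, was at -0.41. The part of endothelial cells in the Car4 level was not tested.

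Car5b (ENSMUSG00000031373), an isoform of the mitochondrial matrix, supplies bicarbonate to the matrix enzyme pyruvate carboxylase. It lies on chromosome X of mm10 from 163976822 to 164027997. Its level was 93.3, 87.8, 60.8 and 58.3 CPM in WT replicates 1 to 4 and 68.6, 56.9, 29.3 and 41.6 CPM in Ucp1Δ/Δ replicates 1 to 4. Ucp1Δ/Δ replicate 1 lay above 2 of the WT mice, so the genotypes overlapped. The log2FC was -0.60 (standard error 0.25, unadjusted 95% interval -1.13 to -0.080), which did not pass. It passed with a log2FC of -0.80 without Ucp1Δ/Δ replicate 1, and with one of -0.69 when the skeletal muscle genes entered the fit as a covariate. The other mitochondrial isoform, Car5a, had 0 counts in all 8 mice, under the floor of 3 counts per mouse, so that Car5b was the mitochondrial isoform detected at this depth.

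Car3 (ENSMUSG00000027559), a cytosolic isoform with low CO2 hydration activity, is known as an abundant protein of fat and of slow skeletal muscle. Its gene is on chromosome 3 of mm10, plus strand, from 14863512 to 14872523. In WT replicates 1 to 4 its level was 7275, 4956, 5555 and 6245 CPM. In Ucp1Δ/Δ replicates 1 to 4 it was 3696, 3292, 3243 and 2540 CPM. The lowest WT mouse was above the highest Ucp1Δ/Δ mouse. The means were 6008 ± 995 CPM (SD, n = 4) and 3193 ± 480.5 CPM (SD, n = 4), 53.2% of the WT level. Among all genes by counts, Car3 held rank 8 to 12 in WT and rank 11 to 17 in Ucp1Δ/Δ mice. It took from 0.456% to 0.707% of all counts in WT mice and from 0.264% to 0.368% in Ucp1Δ/Δ mice. The log2FC was -0.91 (standard error 0.18). Leaving out any single mouse kept it between -1.004 and -0.82.

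Skeletal muscle also makes Car3, and its marker genes were examined in the same mice. The summed level of 15 such genes was 2408, 273, 130 and 1138 CPM in WT replicates 1 to 4 and 617, 3302, 176 and 1537 CPM in Ucp1Δ/Δ replicates 1 to 4. The genotypes overlapped widely, and of the 14 tested 0 passed. With the list as a covariate, Car3 had a log2FC of -0.93, against -0.91 without it. Car14 moved from -2.77 to -2.69, and Car13 from -0.69 to -0.65, at which it did not pass.

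**Figure D2:**
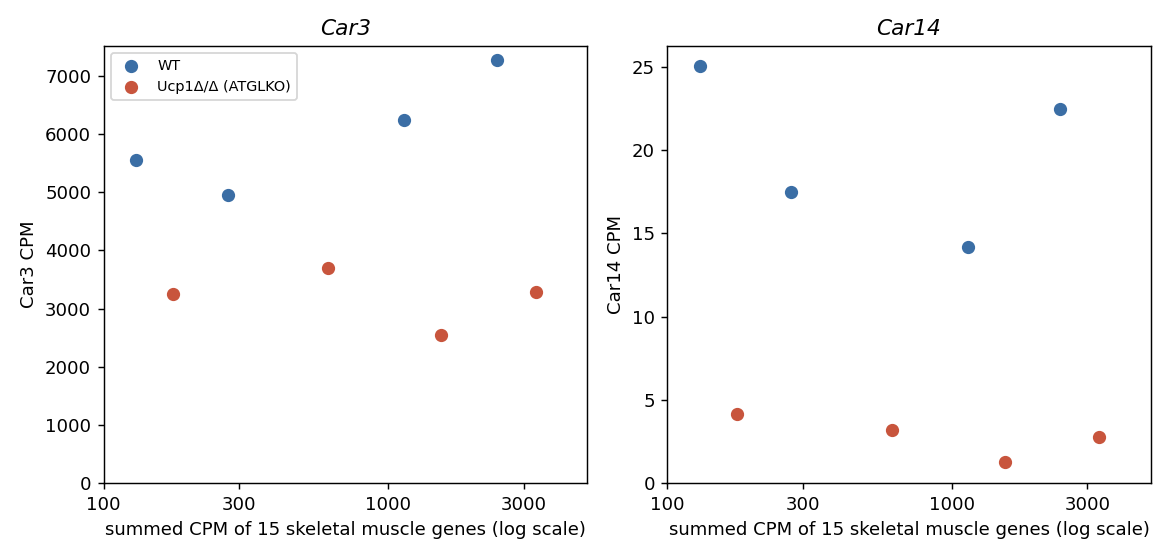
Car3 (left) and Car14 (right) in CPM against the summed CPM of 15 skeletal muscle genes on a log scale, 1 point per mouse. WT mice (blue) lie above Ucp1Δ/Δ mice (red) for both genes at low and at high muscle signal, which ranged from 130 to 3302 CPM.

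Car13 (ENSMUSG00000027555), another cytosolic isoform, lies on chromosome 3 of mm10 from 14641727 to 14663002. Its level was 19.4, 16.6, 19.0 and 17.7 CPM in WT replicates 1 to 4 and 13.4, 9.65, 13.4 and 8.58 CPM in Ucp1Δ/Δ replicates 1 to 4. The WT mice lay close together, and all Ucp1Δ/Δ mice were below them. The means were 18.2 ± 1.28 CPM (SD, n = 4) and 11.3 ± 2.52 CPM (SD, n = 4), from 35 to 57 and from 20 to 38 raw counts per mouse. The log2FC was -0.69 (standard error 0.22). The call was close to the threshold: it was lost without WT replicate 1, without WT replicate 3, without Ucp1Δ/Δ replicate 2 and without Ucp1Δ/Δ replicate 4, at log2FC of -0.67, -0.67, -0.61 and -0.59.

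Car2 (ENSMUSG00000027562) encodes the fast cytosolic isoform found in many cells, red blood cells among them. It lies on chromosome 3 of mm10 from 14886273 to 14900770. Its level was low, at 4.59, 4.48, 3.01 and 5.57 CPM in WT replicates 1 to 4 and 7.08, 6.53, 4.60 and 4.29 CPM in Ucp1Δ/Δ replicates 1 to 4. The genotypes overlapped, and Ucp1Δ/Δ replicates 1 and 2 were the highest. The log2FC was 0.39 (standard error 0.33, unadjusted 95% interval -0.31 to 1.096), which did not pass. Leaving out single mice gave values between 0.21, without WT replicate 3, and 0.51. The interval holds both no difference and a rise larger in size than the fall of Car13. Red blood cell markers summed to between 3575 and 6989 CPM in WT and between 2771 and 6775 CPM in Ucp1Δ/Δ mice, with 0 of 5 passing.

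Car8 (ENSMUSG00000041261), an acatalytic member known as a partner of the inositol trisphosphate receptor, lies on chromosome 4 of mm10 from 8143362 to 8239041. It had 2, 7, 10 and 8 counts in WT replicates 1 to 4 and 2, 0, 4 and 1 counts in Ucp1Δ/Δ replicates 1 to 4. WT replicate 1 lay within the range of the Ucp1Δ/Δ mice. The mean level was 2.89 ± 1.31 CPM (SD, n = 4) in WT and 0.702 ± 0.709 CPM (SD, n = 4) in Ucp1Δ/Δ mice. The Ucp1Δ/Δ mean was below the floor of 3 counts per mouse. The default filter on low counts removed Car8, so it is not among the 6 tested. Under the looser filter it passed with a log2FC of -2.08 (standard error 0.70), and in DESeq2's Wald test, at -2.15 (standard error 0.87), it did not.

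Where reads cover whole transcripts, levels of different members can be set side by side only per length of exon. In WT mice the order was Car3 at 2097 ± 348 CPM per kb of exon (SD, n = 4), Car4 at 20.5 ± 5.76, Car5b at 11.8 ± 2.85, Car13 at 7.91 ± 0.557, Car14 at 7.78 ± 1.92, Car2 at 1.82 ± 0.437 and Car8 at 0.749 ± 0.339. Between neighbours in this order, only Car13 and Car14 overlapped among the WT mice, at 7.21 to 8.43 and 5.58 to 9.85 CPM per kb. In Ucp1Δ/Δ mice Car14, at 0.507 to 1.64 CPM per kb, lay below Car13, at 3.73 to 5.85, and also below Car2, at 1.77 to 2.92. The rest of the order was as in WT mice, with Car3 at 1114 ± 168, Car4 at 14.7 ± 1.29, Car5b at 7.73 ± 2.72 and Car8 at 0.182 ± 0.184 CPM per kb (SD, n = 4 each). In CPM without the length, Car5b came before Car4, since Car5b has 6354 exonic bases and Car4 has 1966. For the libraries the study's methods name the NEGEDIA Digital mRNA-seq service. They do not say in words whether reads cover whole transcripts or mainly their 3′ ends. For 3′ ends the values per kb and this order would not apply.

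A cluster of 4 genes of the family lies side by side on chromosome 3. Counted from the first base of Car13, Car1 begins at 124.5 kb, Car3 at 221.8 kb and Car2 at 244.5 kb, and Car2 ends at 259.0 kb. Within this stretch Car13 and Car3 fell, Car2 did not pass with a log2FC above 0, and Car1 had 2 counts in every WT mouse and at most 1 in a Ucp1Δ/Δ mouse. Car3 and Car2 are neighbours on the same strand, with WT levels of 2097 and 1.82 CPM per kb, or 6008 and 4.41 CPM without the length. Car14 is on the same chromosome but outside the cluster. No stretch of 75 bases, the read length, was shared with another gene by the transcripts of Car2, Car3, Car4, Car8, Car13 or Car14, and 0.525% of those of Car5b were.

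**Figure D3:**
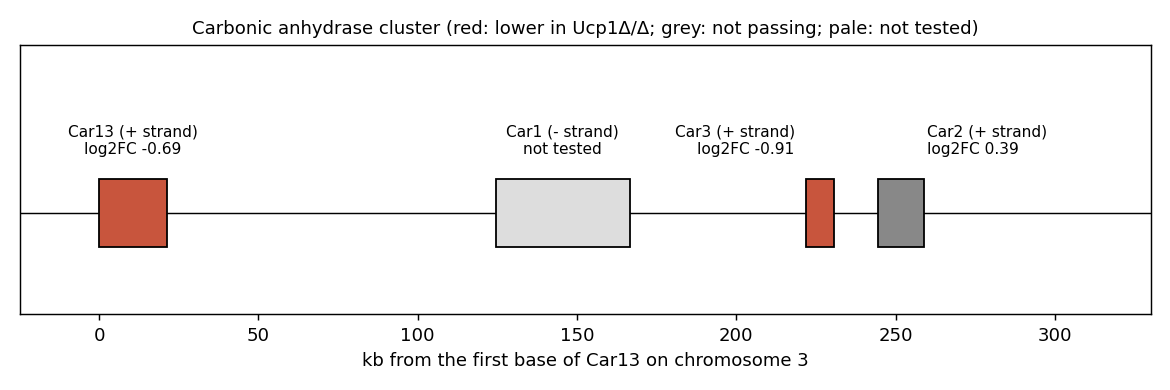
Map of the carbonic anhydrase cluster, with the distance in kb from the first base of Car13 on the horizontal axis and a box for each gene. Red boxes (Car13 and Car3) are lower in Ucp1Δ/Δ mice, the grey box (Car2) did not pass, and the pale box (Car1) was not tested.

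Across mice of one genotype, members did not all deviate together. Pearson's r of deviations from the genotype means of log2 CPM, over 8 mice and as a description, was 0.80 for Car13 and Car14, 0.68 for Car3 and Car13, and 0.52 for Car3 and Car14. For Car2 and Car4 it was 0.74, and for Car4 and Car14 it was -0.39. These values share the 8 libraries and the scaling of each.

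The genes whose log2 CPM followed Car14 most closely over the 8 mice, among 6426 with a mean of at least 10 CPM, were Acaca (r = 0.99), Ormdl3 (0.98), Sh3bgrl (0.98), Fasn (0.98) and Kmt5a (0.98). Acaca and Fasn encode the enzymes that make and use malonyl-CoA in fatty acid synthesis. For Car3 they were Gtf2e2 (r = 0.99), the NADPH-producing malic enzyme gene Me1 (0.98), Dhrs7 (0.98), the ADP/ATP carrier gene Slc25a4 (0.98) and Sh3bgrl (0.97). Each r joins 2 genotypes that stand apart, so it holds the difference between them. By deviations from the genotype means the closest to Car14 were Sf3a1 (0.99), Trib1 (0.95), Rps14 (0.94), Lyrm9 (0.94) and Zfp768 (0.93), and none of the first 5 was among them. For Car3 they were Lsm7 (0.98), Tra2b (0.92), Rpl21 (0.92), Unc50 (0.92) and Gtf2e2 (0.91), of which Gtf2e2 was on both lists.

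Of the other 9 genes of the family, 2 were tested. Car11, an acatalytic secreted member, fell by 1.78 on the log2 scale (standard error 0.33; edgeR, Benjamini-Hochberg adjusted p = 0.00119), with means of 9.73 ± 2.55 in WT and 2.797 ± 0.85 CPM in Ucp1Δ/Δ mice (SD, n = 4 each). Its WT mice were at 9.18, 13.4, 7.68 and 8.61 CPM and its Ucp1Δ/Δ mice at 2.12, 3.11, 2.09 and 3.86 CPM, with no overlap. Car11 cleared the default filter only through the WT mice, where it was higher, so its call is a description only. Cytosolic Car7 was at 3.32 ± 1.58 in WT and 5.26 ± 3.199 CPM in Ucp1Δ/Δ mice (SD, n = 4 each), with overlap and an adjusted p of 0.433 in the same edgeR test. Car1, Car6, Car9, Car10, Car12 and Car15 had at most 3 counts in any mouse. Over the 16 genes of the family, 8 were tested, 4 fell, 0 rose and 4 did not pass. Among all genes tested 7.63% fell and 13.3% rose. Those of the family that fell, other than Car11, are members selected on this contrast, so nothing is read from this share.

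Carboxylases use the bicarbonate that carbonic anhydrases provide. The list of 10 genes also holds Cad, Cps1 and Hlcs, which do not encode carboxylases. Of the 10, 9 were tested, 4 fell and 5 did not pass, where 7.63% of all genes tested fell. The median log2FC was -0.52, beside -0.0087 over all genes tested. All 9 were below 0, and 8 of 9 with scaling by total counts only, where the median was -0.38. Acaca, the cytosolic acetyl-CoA carboxylase of fatty acid synthesis, had means of 800.5 ± 88.5 in WT and 359.8 ± 67.7 CPM in Ucp1Δ/Δ mice (SD, n = 4 each) and fell by 1.15 on the log2 scale (standard error 0.18; adjusted p = 0.000217, edgeR as above). Pcx, pyruvate carboxylase of the mitochondrial matrix, had means of 195 ± 48.4 and 104 ± 11.1 CPM (SD, n = 4 each) and fell by 0.91 (standard error 0.19; adjusted p = 0.00291, same edgeR test). Acacb, the acetyl-CoA carboxylase at the outer mitochondrial membrane, had a log2FC of -0.58 (adjusted p = 0.0135). Mccc1, of leucine breakdown, had one of -0.52 (adjusted p = 0.0464). Without Ucp1Δ/Δ replicate 2 neither Acacb nor Mccc1 passed. Mccc1 also lost its call with total counts only, under both other count filters, with the replicate block and with the muscle covariate. The same held without WT replicate 1, 2 or 3 and without Ucp1Δ/Δ replicate 1 or 3. The propionyl-CoA carboxylase genes Pccb and Pcca, the most abundant that did not pass, had log2FC of -0.44 and -0.31.

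Bicarbonate crosses membranes through transporters of the Slc4 and Slc26 families. Of 20 such genes 4 were tested, 1 fell and 3 did not pass, where 7.63% of all genes tested fell. The median log2FC was 0.015. The gene that fell was Slc4a4, the sodium bicarbonate cotransporter NBCe1. It was at 494, 388, 769 and 536.5 CPM in WT replicates 1 to 4 and at 273, 189, 269 and 269.6 CPM in Ucp1Δ/Δ replicates 1 to 4. Each WT mouse was above each Ucp1Δ/Δ mouse, and the log2FC was -1.13 (standard error 0.21; adjusted p = 0.00115, edgeR as above). The transporter genes Slc4a7 and Slc26a2, the most abundant that did not pass, had log2FC of 0.09 and -0.06.

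Protons leave cells by sodium-proton exchange and together with lactate. Of 20 exporter genes and their partners 9 were tested, 1 fell and 8 did not pass, where 7.63% of all genes tested fell. The median log2FC was 0.16. The monocarboxylate transporter gene Slc16a7 had means of 6.71 ± 1.798 in WT and 1.57 ± 1.34 CPM in Ucp1Δ/Δ mice (SD, n = 4 each) and fell by 2.0 on the log2 scale (standard error 0.50; adjusted p = 0.00976, edgeR as above). Its counts were 9 to 20 in WT and 0 to 10 in Ucp1Δ/Δ mice. Slc16a7 cleared the default filter only through the WT mice, where it was higher, so its call is a description only. The default filter removed 11 genes of the list. Of these, 3 that were higher in Ucp1Δ/Δ mice without overlap are named after their values were seen. How often genes outside the list show this was not counted. Emb, a partner of lactate transporters, had 1, 1, 1 and 0 counts in WT and 15, 30, 13 and 8 in Ucp1Δ/Δ mice. The endosomal exchanger gene Slc9a9 had 3, 1, 5 and 3 against 11, 39, 11 and 17 counts, and the lactate exporter gene Slc16a3 had 2, 3, 0 and 1 against 6, 17, 5 and 6. All 3 passed under the looser filter, and Emb and Slc9a9 also in DESeq2's Wald test. Since the 3 were picked on these counts, their calls are a description only. Chp1, a cofactor of sodium-proton exchangers, and Bsg, the chaperone of lactate transporters, had log2FC of -0.29 and 0.36 and did not pass. Of the genes for CO2 channels and proton or bicarbonate sensing, 3 of 11 were tested and 1 rose, where 13.3% of all genes tested rose. It was the proton-sensing receptor gene Gpr65, known from immune cells, at 1.29 ± 0.552 in WT and 7.83 ± 2.25 CPM in Ucp1Δ/Δ mice (SD, n = 4 each), a log2FC of 2.55 (adjusted p = 0.000339, same edgeR test, standard error 0.41). The counts of Gpr65 were 1, 4, 4 and 3 in WT and 17, 35, 15 and 19 in Ucp1Δ/Δ mice. Its WT level was near the floor of 3 counts, and it cleared the default filter only through the Ucp1Δ/Δ mice. The call of Gpr65 is therefore also a description only. Aqp1, a water and CO2 channel of endothelium and red blood cells, had a log2FC of 0.57 (adjusted p = 0.0817), and proton-sensing Gpr4 one of 0.74, with 0 of these passing.

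**Figure D4:**
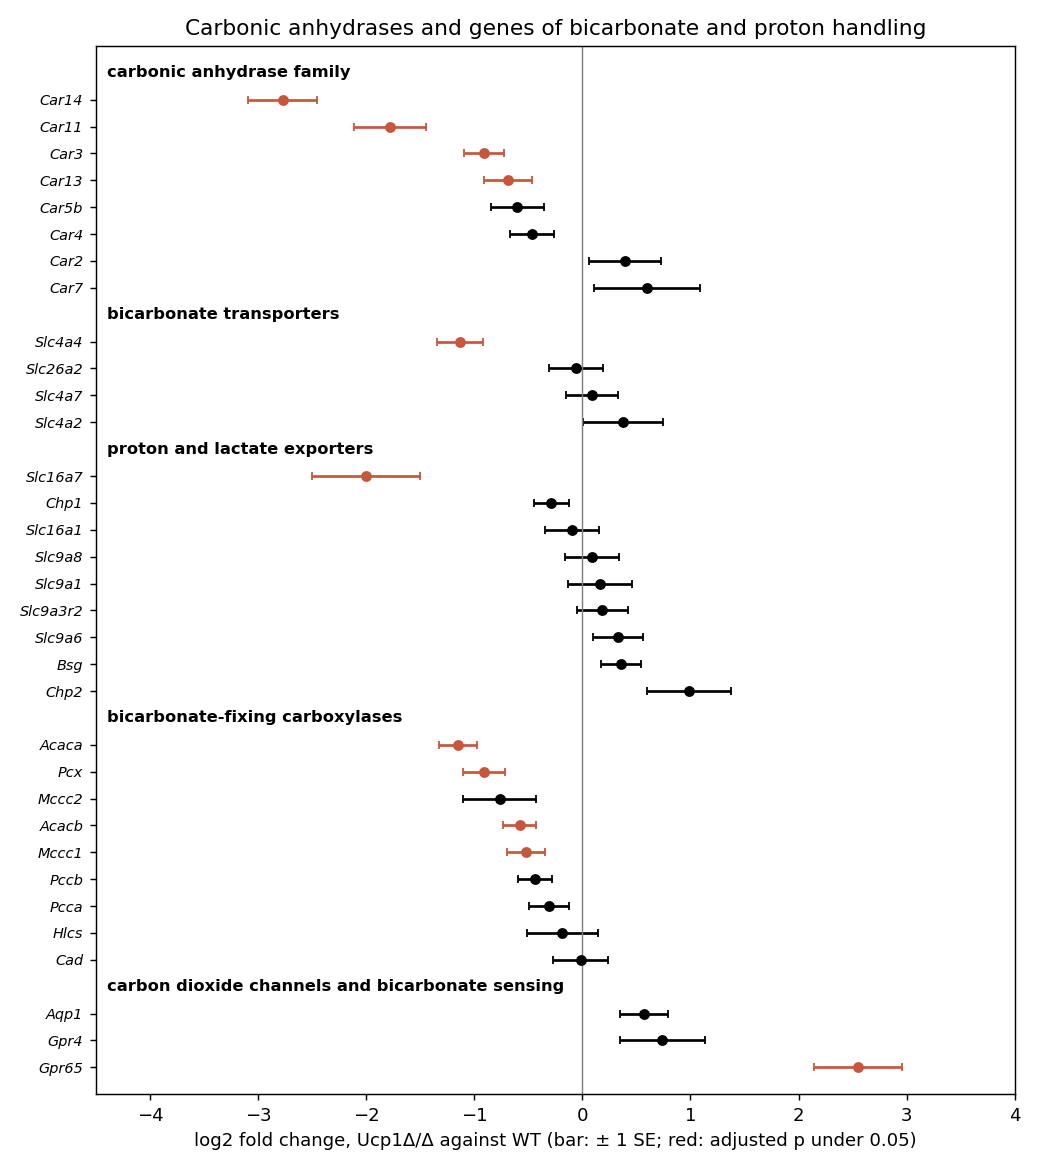
log2 fold change of Ucp1Δ/Δ against WT for the tested genes of the carbonic anhydrase family and of 4 related lists, with bars of 1 standard error either side and genes at an adjusted p under 0.05 in red. Car14 lies furthest to the left at -2.77. All 9 tested genes of the carboxylase list lie below 0, Cad only at -0.017, though not in every alternative. Gpr65, near the floor of 3 counts in WT mice, lies furthest to the right at 2.55.

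Markers of cell types differed between the genotypes in the same libraries. Among all genes tested 7.63% fell and 13.3% rose. Of 14 brown adipocyte markers, 4 fell (Cidea, Elovl3, Adipoq and Plin1, with log2FC from -1.96 to -0.82), 1 rose (Dio2, 1.45) and 9 did not pass, among them Ucp1 at -0.34. Their summed level was between 8041 and 19030 CPM in WT and between 6808 and 10790 CPM in Ucp1Δ/Δ mice. All 10 macrophage markers tested rose. The 12 listed had sums between 115.5 and 179 CPM in WT against between 1165 and 2012 CPM in Ucp1Δ/Δ mice. Some, among them Adgre1, Cd68 and Tyrobp, cleared the default filter only through the Ucp1Δ/Δ mice, so their rise is a description only. Of the 2 not tested, Cd14 overlapped between the genotypes and Fcgr1 did not. Of 10 stromal progenitor markers 9 rose, with sums between 320.2 and 414 CPM in WT and between 699.5 and 1062 CPM in Ucp1Δ/Δ mice. Some, Pdgfra, Lum and Col15a1 among them, cleared that filter only through the Ucp1Δ/Δ mice. Of 4 Schwann cell markers tested 2 rose, S100b and Pmp22, with sums between 143 and 208 CPM and between 755 and 946.5 CPM. The part of these shifts in the levels of Car3, Car13, Car14 and Car11 was not tested.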

How the data were processed

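Per the study's methods, the authors used bbduk for trimming, STAR for alignment to mm10 and HTseq-counts for counting, and deposited whole-number counts for 8 mice. The submitters' processing notes name Trimmomatic, HISAT2 and DESeq2 in their place. The annotation release and the use of strand are not given in the sources used here. The authors also deposited log2 values, which equal the log2 of each count times 1 factor per mouse, plus 1. These served for 1 alternative.

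Low counts were removed by filterByExpr (defaults), libraries scaled by TMM, and genotype tested in the quasi-likelihood framework of edgeR (R 4.3.3, edgeR 4.0.16, limma 3.58.1, DESeq2 1.42.0), with Benjamini-Hochberg adjustment over 8930 genes and a threshold of 0.05. Standard errors were |log2FC| divided by the root of F. CPM was computed on TMM-scaled totals, and log2 CPM with 2 as prior count. Of the 31053 identifiers 30934 had a symbol. Positions are from GENCODE on mm10, promoters from RefSeq on GRCm38.p6. Lengths per kb are those of all annotated exons merged.

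The members and the lists were chosen with earlier results of these data known. Named were all members, the tested genes of the family, in each other list the genes that passed and the 2 most abundant that did not, the 5 genes most like Car14 and Car3 on each scale, and Pnpla2. No library was a duplicate: chi-square over its expectation was 5.18 to 27.1 between mice of a genotype. On simulated counts over 8930 genes, 200 of them changed, 57% of changed genes were recovered at a log2 change of 1 and 90% at 2. Of the calls there, 2.65% were unchanged genes. In the data 1872 genes passed, so these rates need not hold for them. The labels do not say that the mice were littermates or handled in batches. Alternatives were DESeq2's size factors, total counts only, no mitochondrially encoded genes, DESeq2's Wald test, voom with quality weights, a replicate block, filters of 1 or more counts in any mouse and 10 or more in every mouse, the skeletal muscle list as a covariate, limma trend on the deposited log2 values, each mouse left out, and a log2FC above 1.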

Additional observations from a re-analysis of the deposited data

Results flagged for a closer look

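Of 34 groups of 4 mice examined gene by gene for a mouse far from the other 3, 1 was found. Chance, at about 1 in 20 per group, gives 1.7 over the 34 groups. In Ucp1Δ/Δ replicate 2 the log2(CPM + 1) of Slc4a4 was 7.57, while the other 3 Ucp1Δ/Δ mice were between 8.08 and 8.10, so that the gap took 0.956 of the range. Leaving out any single mouse kept the log2FC of Slc4a4 between -1.28 and -0.93, and it passed each time.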

How the results depend on the processing

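Car14, Car11, Slc4a4 and Acaca passed in every alternative in which they were tested, as did Car3 other than with a log2FC above 1, which its -0.91 does not reach, and Car2 and Car4 passed in none. No log2FC of a member, or of a listed gene that passed, changed sign. With at least 10 counts in every mouse, 1195 genes passed (746 higher, 449 lower), with 1 member and 1 gene of the family, and 0 exporters and 0 genes of the CO2 list. With total counts only, 404 genes were lower, 2 genes of the CO2 list passed, and Car13 had -0.56 and did not pass. With at least 1 count in any mouse, 5 members, 4 exporters (3 of them higher) and 2 genes of the CO2 list passed, and Car5b passed at -0.63. DESeq2's Wald test gave 3 exporters (2 of them higher) and left Car13 short of the threshold at -0.73. voom gave 2 genes of the CO2 list, and a log2FC above 1 left 227 lower genes. The filter of 10 counts and the muscle covariate left Car13 short at -0.62 and -0.65, and the covariate took Car5b past the threshold at -0.69. Why these calls moved was not tested.

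With each mouse left out, between 400 and 851 genes were lower (400 without Ucp1Δ/Δ replicate 2), and between 2 and 4 members, 3 and 5 genes of the family, 1 and 3 exporters, 2 and 6 carboxylases and 1 and 2 genes of the CO2 list passed. The log2FC of Car5b was between -0.80 and -0.41, that of Car13 between -0.79 and -0.59, and the log2 ratio of mean CPM of Car8 between -2.93 (without Ucp1Δ/Δ replicate 3) and -1.63.

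Replicate numbers are shared by the genotypes, and the labels do not say whether they pair the mice. Deviations of same-numbered mice had correlations of -0.0873, -0.196, 0.304 and 0.241, too few values to decide it. With the replicate block, 1719 genes and 4 members passed, with Car5b at -0.65 (standard error 0.18, against 0.25 without the block). Depth limits Car8, Car2, Car1 and Car7, which had few counts in each mouse.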
